A study of Homo sapiens with 6 samples.

Results

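The metallothionein genes MT1A, MT1E, MT1F, MT1G, MT1H, MT1M, MT1X, MT2A and MT3, together with their regulator MTF1, were followed in EJ/T24 bladder cancer cells given FOXA1. Members were taken by gene symbol: every probeset of the HG-U133 Plus array whose annotation names 1 of these 10 genes was used. This gave 15 probesets for 9 genes, out of 54613 probesets tested and 19775 genes read through a single symbol. No probeset carried the symbol MT1A, and none named a member together with another gene. The metallothioneins have 12 of the 15 probesets and MTF1 has 3. Of the metallothionein probesets, 9 have names ending in _x_at, which the array maker gives to probesets whose oligonucleotides also match other transcripts. Metallothionein transcripts are similar in sequence, so each _x_at value may hold signal from several family members and cannot be taken as a reading of 1 gene alone.

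Metallothioneins are small cysteine-rich proteins that bind zinc and copper and also trap toxic metals such as cadmium. MTF1 is the zinc-sensing transcription factor that, when zinc rises, binds metal response elements in metallothionein promoters and in that of the zinc exporter SLC30A1. The MT1 and MT2A proteins are widely expressed, whereas MT3 is best known from brain and MT4 from stratified squamous epithelium. On chromosome 16q the 9 metallothionein members lie in 1 cluster in the RefSeq gene order (GRCh38.p14), from MT3 and MT2A at one end through MT1E, MT1M, MT1A, MT1F, MT1G and MT1H to MT1X, while MTF1 lies on chromosome 1.

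EJ/T24 is an established human line of invasive bladder cancer with wild-type FGFR3 and low FOXA1. There were 3 arrays of cells transfected with a FOXA1 construct and 3 arrays of cells that received an empty plasmid (control), all grown in DMEM with 10% FCS. In both groups 24 μg of DNA was given to a 90 mm dish at 70% confluence. The empty plasmid is pUC19 in the labels, which also give a Lipofectamine reagent other than LTX, whereas pcDNA3 and Lipofectamine LTX are described in the paper. The methods name no selection of transfected cells, so transfected and untransfected cells may have been read together. The methods describe triplicate experiments but do not tie each array to a culture of its own, so each p-value measures the spread between arrays, which may be technical. In such bulk RNA, fewer expressing cells and less RNA per cell cannot be told apart. The trimmed mean signal was 100.01 in each array, with medians of 14.4 to 17.5 (FOXA1 transfected) and 12.3 to 16.1 (control). FOXA1 itself read 38.9, 34.8 and 31.9 in the FOXA1 transfected arrays and 21.8, 24.4 and 21.0 in the control arrays at 204667_at. The groups did not overlap there (log2 difference 0.65, SE 0.23, limma adjusted p = 0.31), while at the dimmer 237086_at FOXA1 overlapped between the groups. These are RNA readings, and the paper reports that FOXA1 protein was checked by western blot in a portion of the transfected cells. Of the epithelial and urothelial markers, KRT18 was bright (signal 2478 ± 103.3 in FOXA1 transfected and 2261 ± 165.3 in control cells, SD, n = 3), whereas CDH1, KRT19 and UPK3A had mean signals under 3.5, the 20th percentile of all signals, in both groups, and EPCAM was dim (4.83 ± 2.59 against 7.0 ± 1.32). UPK1B, a urothelial plaque protein, read 25.3 ± 5.15 against 14.9 ± 4.63 and the keratin KRT7 27.4 ± 5.52 against 21.0 ± 2.70, both without overlap and neither past the test, and KRT8, PPARG and GATA3 were also above that percentile.

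The promoters of MT2A, MT1H and MT1X are shown because they carry the metal response elements through which MTF1 acts on this family. They are the 250 bases before the gene start in RefSeq (GRCh38.p14), on the plus strand, at chr16:56608334-56608583 for MT2A, chr16:56669564-56669813 for MT1H and chr16:56682220-56682469 for MT1X. Capitals mark the metal response element core, searched on both strands as TGCACNC and TGCGCNC.
MT2A: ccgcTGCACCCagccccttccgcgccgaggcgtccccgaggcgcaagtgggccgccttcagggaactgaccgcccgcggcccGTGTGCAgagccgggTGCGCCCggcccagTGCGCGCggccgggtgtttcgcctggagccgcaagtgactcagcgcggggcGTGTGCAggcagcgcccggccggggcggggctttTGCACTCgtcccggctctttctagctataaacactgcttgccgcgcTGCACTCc
MT1H: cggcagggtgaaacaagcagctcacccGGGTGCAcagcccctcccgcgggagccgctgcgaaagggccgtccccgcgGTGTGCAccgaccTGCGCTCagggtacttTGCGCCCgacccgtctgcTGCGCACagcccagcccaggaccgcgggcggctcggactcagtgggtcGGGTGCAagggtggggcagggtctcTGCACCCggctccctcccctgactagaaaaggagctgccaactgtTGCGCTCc
MT1X: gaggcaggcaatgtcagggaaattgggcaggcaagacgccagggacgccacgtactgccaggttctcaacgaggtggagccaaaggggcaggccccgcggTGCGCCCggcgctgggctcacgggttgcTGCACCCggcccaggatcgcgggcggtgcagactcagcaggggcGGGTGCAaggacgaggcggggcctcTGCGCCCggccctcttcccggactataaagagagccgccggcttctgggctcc
MT2A held 7 matches, MT1H 8 and MT1X 4. At least 1 match was found in 24.8% of 35116 promoter windows of the same length, 4 or more in 0.208%, 7 or more in 0.0228% and 8 or more in 0.0142%. A TATA box spelled TATAAA was matched in MT2A and MT1X and in 10.7% of all windows. The upstream window of MTF1 had no match to the metal response element core or to TATAAA. The forkhead core, searched as TGTTTAC and TATTTAC on both strands, was matched in 5.27% of all windows and in none of the 4 member windows, which says only that these letters are not in these 250 bases. MT1A, MT1E, MT1F, MT1G, MT1M and MT3 had no promoter in the RefSeq table used here.

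**Figure D1:**
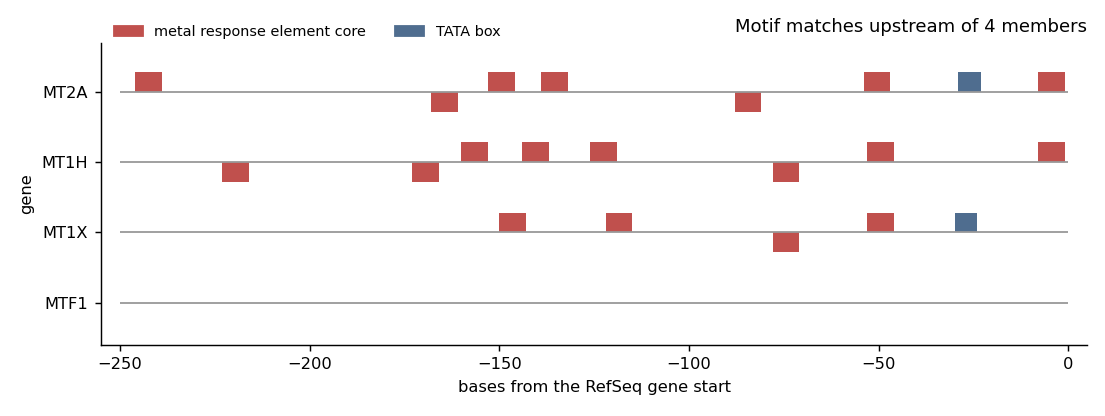
Motif matches in the 250 bases before the RefSeq gene start of 4 members (x axis, bases from the start), with boxes above the line for the plus strand of the gene and below it for the minus strand. MT2A, MT1H and MT1X hold 7, 8 and 4 metal response element cores, and MTF1 holds none.

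Across the metallothioneins, signals were mostly higher in FOXA1 transfected cells by a small margin, and no probeset passed the test. The direction given here is that of the sample labels, and it is opposite to the direction in the study's own table of changed genes, for example at MAP2K5, SHISA3, DKK1 and RPL37A, whereas FOXA1 at 204667_at read higher in the arrays labelled FOXA1. Of 12 metallothionein probesets, 11 had a log2 difference above 0 and 1 below, with a median of 0.26. The median over all 54613 probesets was 0.08. None of the 12 was called at an adjusted p of 0.05 by limma (adjusted p 0.25 to 0.99), and 8 had an unadjusted p under 0.05, all with higher signal in FOXA1 transfected cells. SAM, the test the methods name, also called none. Over the whole array limma called 0.0385% of probesets higher and 0.0201% lower, and 7.06% were higher at an unadjusted p under 0.05. In 9 of the 12 the lowest FOXA1 transfected signal exceeded the highest control signal, which held for 10.5% of all probesets and for 15.1% of _x_at probesets. After median centring of the arrays the median of all probesets moved to -0.10, and 3 of the bright metallothionein probesets turned below 0. Centring moves every log2 difference by the same amount, so the distance of each probeset from the median of all probesets stays as it was.

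The 9 _x_at probesets were the bright ones (mean signal over 100), and they carry the symbols MT1E, MT1F, MT1G, MT1H, MT1X and MT2A. For MT2A, the main MT2 isoform, 212185_x_at read 9365.5, 9325 and 7904.8 in the FOXA1 transfected arrays and 7344, 7341.7 and 7470 in the control arrays. The first and second FOXA1 transfected arrays lay well above the control arrays, and the third lay closer to them without overlap. The log2 difference was 0.26 (SE 0.08, limma adjusted p = 0.28), a ratio of 1.20, but 0.0029 with quantile normalization and 0.0769 after median centring. MT1X had 2 such probesets, and 208581_x_at read 7743.2, 8127.8 and 6473.5 against 5934.6, 6033.8 and 6023.3 (log2 difference 0.31, SE 0.09, limma adjusted p = 0.25). Again the third FOXA1 transfected array was the lowest of its group. Without that array this probeset passed the test (log2 difference 0.40, adjusted p = 0.0498), the only member to do so when an array was left out. Over all arrays its log2 difference was 0.0665 with quantile normalization and 0.12 after median centring.

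The other MT1X probeset, 204326_x_at, behaved differently in single arrays. It read 3837.6, 3838.1 and 4410.7 in FOXA1 transfected and 3682.1, 3891.5 and 3711.2 in control cells, so the groups overlapped and the third FOXA1 transfected array was the highest. Its log2 difference was 0.10 (SE 0.08, limma adjusted p = 0.70), with a 95% interval from -0.08 to 0.27, and it was -0.09 after median centring. Within each array the 2 MT1X probesets were -0.88 ± 0.29 apart on the log2 scale in FOXA1 transfected and -0.67 ± 0.04 apart in control cells (SD, n = 3, exact two-sided permutation p = 0.40).

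MT1H read 6862.4, 6781.3 and 5880.4 in the FOXA1 transfected arrays against 5471.5, 5656.1 and 5468.4 in the control arrays at 206461_x_at. As for MT2A, the groups did not overlap and the third FOXA1 transfected array was nearest to the control arrays. The log2 difference was 0.23 (SE 0.08, limma adjusted p = 0.31), but 0.0232 with quantile normalization and 0.0489 after median centring.

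MT1E, another of the inducible isoforms, had 2 bright probesets. At 212859_x_at it read 5319, 5393.2 and 4622.9 in FOXA1 transfected and 4244.8, 4157.4 and 4353.3 in control cells, and the log2 difference was 0.26 (SE 0.08, limma adjusted p = 0.26), against 0.13 with quantile normalization and 0.0803 after median centring. At 216336_x_at it read 4679.4, 4689.1 and 4666.1 against 4186.2, 4118.7 and 4086.7. Here the FOXA1 transfected arrays were almost level with each other, the groups were far from overlapping, and the log2 difference was 0.18 (SE 0.07, limma adjusted p = 0.35), although after median centring it was -0.0025.

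MT1F was read at very different brightness by its 2 probesets. At 217165_x_at the signals were 3764.9, 3708.8 and 3749.3 in FOXA1 transfected and 3508.9, 3362 and 3339.9 in control cells, with a log2 difference of 0.14 (SE 0.07, limma adjusted p = 0.49) that became -0.05 after median centring. At 213629_x_at they were 399, 414.6 and 481.3 against 341, 323.1 and 396. The lowest FOXA1 transfected array was only 3.0 above the highest control array there. The log2 difference was 0.29 (SE 0.11, limma adjusted p = 0.32), against 0.31 with quantile normalization and 0.11 after median centring. MT1G resembled it at 204745_x_at, with 2638.1, 2538.3 and 2822.2 against 2418.7, 1874.4 and 2354.3 and the third FOXA1 transfected array highest. The second control array was the low one, and the log2 difference was 0.27 (SE 0.10, limma adjusted p = 0.33), or 0.16 without that array. It was 0.26 with quantile normalization and 0.0925 after median centring.

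**Figure D2:**
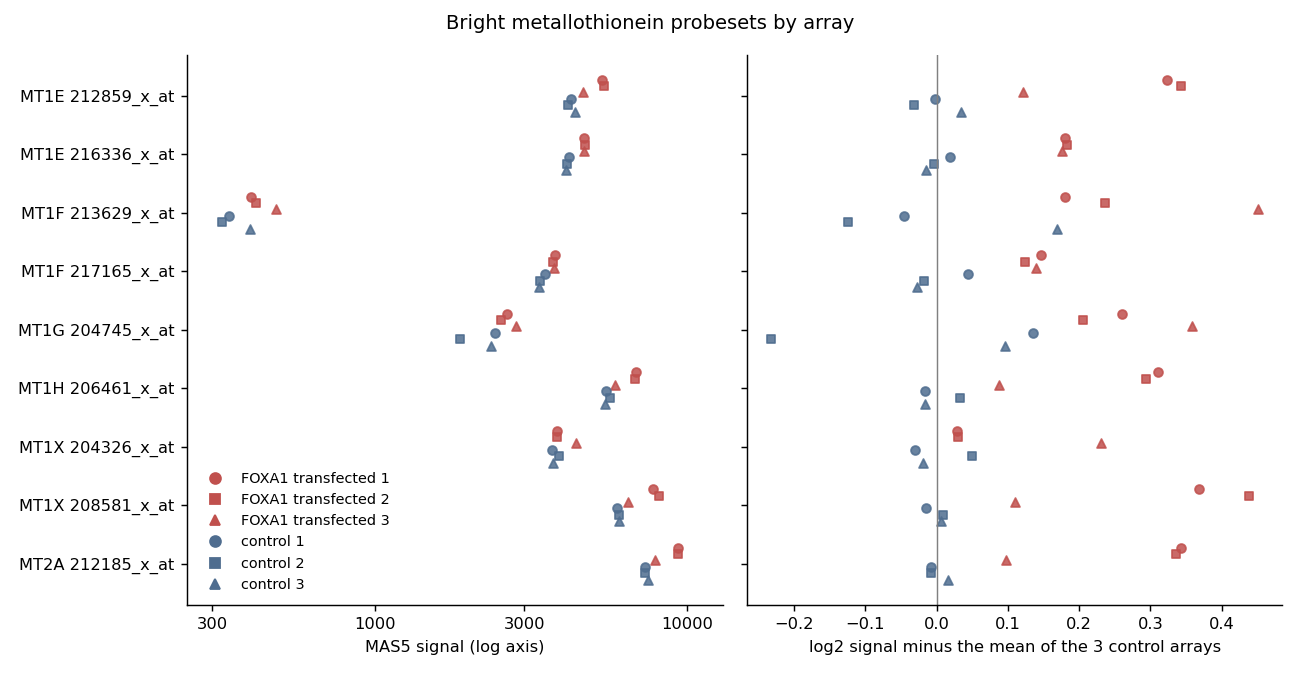
The 9 bright metallothionein probesets (rows) by array, as MAS5 signal on a log axis (left) and as log2 signal minus the mean of the 3 control arrays (right), with red points for FOXA1 transfected and blue points for control arrays. In 8 of 9 probesets all red points lie right of all blue points. This held for 10.5% of all probesets on the array, 21.1% over a mean signal of 1000 and 58.2% over 5000. The third FOXA1 transfected array (triangle) is the lowest of its group in 5 of the 9 and the highest in 3.

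The array to array pattern of the brightest members was shared by other bright probesets of the array, as a comparison within ranges of mean signal showed. These ranges were chosen after the values were seen. Over a mean signal of 5000 the MT1H, MT1X (208581_x_at) and MT2A probesets lay at medians of 0.34, 0.34 and 0.10 above the control mean in FOXA1 transfected arrays 1, 2 and 3, on the log2 scale. The 240 other probesets in that range lay at 0.32, 0.32 and 0.05. Their median log2 difference was 0.23, with the middle of them between 0.18 and 0.28 (quartiles), and that of the metallothioneins was 0.26. In this range 58.2% of all probesets were higher in all FOXA1 transfected than in all control arrays, against 21.1% over a signal of 1000. The 3 brightest metallothionein probesets are therefore near the background of their signal range, although MT1X (208581_x_at), at 0.31, lay above the upper quartile. The highest signal of any probeset moved likewise, at 10634, 10652 and 8905.2 in FOXA1 transfected and 8241.7 to 8394.4 in control arrays. Quantile normalization, which gives every array the same distribution of signals, brought the median log2 difference of the 9 bright probesets from 0.26 to 0.06. Under it MT1G (204745_x_at) and MT1F (213629_x_at), which are less bright, stood at 0.26 and 0.31.

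Between signals of 3000 and 5000 the 4 probesets of MT1E, MT1F (217165_x_at) and MT1X (204326_x_at) had a median log2 difference of 0.16, and the 274 other probesets one of 0.10 (quartiles 0.04 and 0.16). In FOXA1 transfected arrays 1, 2 and 3 these members lay at medians of 0.16, 0.15 and 0.16 above the control mean and the others at 0.12, 0.17 and 0.01, so the members' median was within the quartiles of the others and was the lower one in the second array. The single members of lower signal lay outside those quartiles. Between 1000 and 3000 MT1G (204745_x_at) stood at 0.27, or 0.16 without the second control array, and 1469 other probesets at a median of -0.004 (quartiles -0.09 and 0.09). Between 300 and 1000 MT1F (213629_x_at) stood at 0.29 and 4128 others at -0.03 (quartiles -0.15 and 0.09). None of these 6 probesets passed the test, and their position relative to the other probesets is a description.

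**Figure D3:**
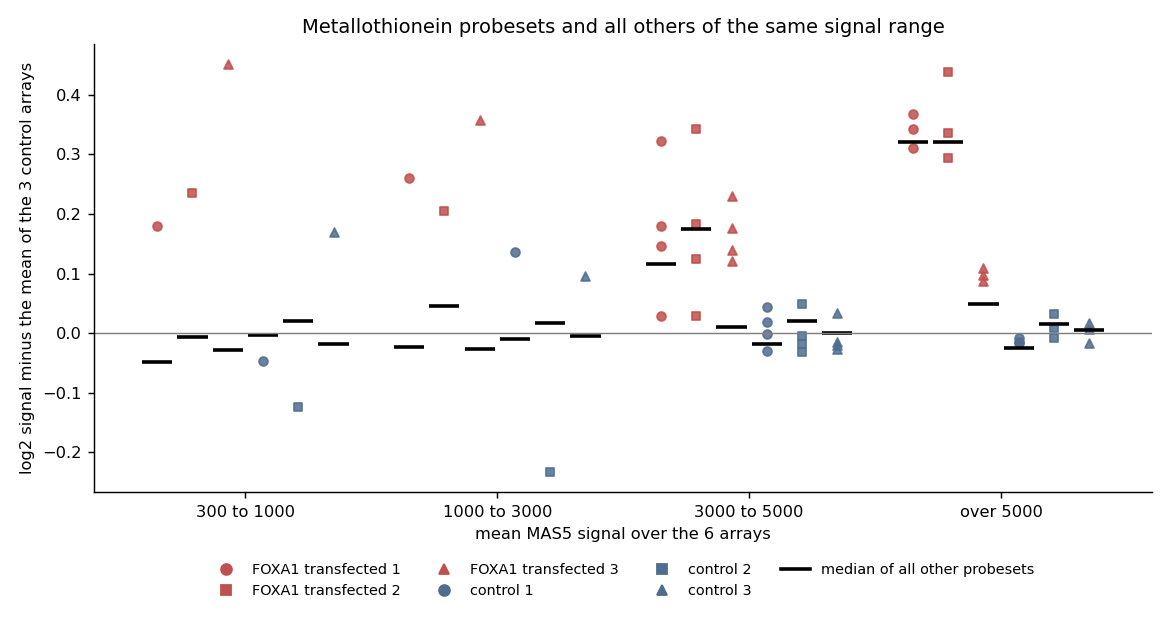
Log2 signal minus the mean of the 3 control arrays (y axis) for metallothionein probesets (points, red for FOXA1 transfected and blue for control arrays) within ranges of mean MAS5 signal (x axis), with a black bar for the median of all other probesets on the same array. Over a signal of 5000 the 240 other probesets lie at 0.32, 0.32 and 0.05 in the FOXA1 transfected arrays, close to the metallothioneins, whereas below 3000 they lie near 0.

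The remaining metallothionein probesets had mean signals under 100 and none is an _x_at probeset. MT3 read 39.3, 48.6 and 58.1 in FOXA1 transfected and 33.9, 28.7 and 34 in control cells at 205970_at. The groups did not overlap, with a log2 difference of 0.58 (SE 0.21, limma adjusted p = 0.32) and a ratio of 1.497. MT3 lay between 0.40 and 0.73 with quantile normalization, median centring or an array left out, the only runs that can change this value. MT1M read 7.4, 12.1 and 10.4 against 11.5, 1.9 and 4 at 217546_at, so that the first control array lay among the FOXA1 transfected ones. Its log2 difference of 1.14 had a 95% interval from -0.43 to 2.71 (limma adjusted p = 0.59). The second MT1G probeset, 210472_at, read 1.3, 4.2 and 6.2 against 1, 5.3 and 7.1, near the 20th percentile of all signals in both groups, and gave a log2 difference of -0.05 (95% interval -2.13 to 2.03) whose sign turned with the array left out. A difference at MT1M or at this MT1G probeset was not detectable at these signals and with this spread between arrays. The MT1G _x_at probeset, 204745_x_at, read 1874.4 to 2822.2, far above 210472_at. How much of that signal comes from MT1G itself was not tested.

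MTF1, the regulator, showed the largest difference among the members at 1 of its 3 probesets. At 205322_s_at it read 68.6, 78.5 and 74.3 in FOXA1 transfected and 32.7, 24.5 and 42.5 in control cells, with a wide gap between the groups. The log2 difference was 1.18 (SE 0.21, limma adjusted p = 0.091), a ratio of 2.27. It lay between 0.98 and 1.38 with quantile normalization, median centring or an array left out, the only runs that can change it. When the dimmer probesets, up to the median of the mean signals, were left out, fewer tests were adjusted for and it passed (adjusted p = 0.035), whereas the adjusted p was 0.30 by SAM, 0.45 when limma was run with no intensity trend, and 0.30 after median centring. At 205323_s_at MTF1 read 77.1, 91.1 and 86.2 against 57.1, 57.4 and 55.8, again without overlap (log2 difference 0.58, SE 0.14, limma adjusted p = 0.16), a ratio of 1.49. At the brightest MTF1 probeset, 227150_at, it read 182.1, 148.9 and 179.7 against 159.7, 159.7 and 165.4. The second FOXA1 transfected array was the lowest of all 6 there, and the log2 difference was 0.07 (95% interval -0.17 to 0.31, limma adjusted p = 0.86), or -0.11 after median centring.

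The MTF1 probesets thus gave unequal differences between the groups. Within each array 205322_s_at lay -1.20 ± 0.25 from 227150_at on the log2 scale in FOXA1 transfected cells and -2.32 ± 0.37 in control cells (SD, n = 3). These values did not overlap, and the difference of 1.12 gave an exact two-sided permutation p = 0.10, the smallest that 3 arrays against 3 allow. For 205323_s_at against 227150_at the values were -1.003 ± 0.27 and -1.51 ± 0.05, also without overlap (exact permutation p = 0.10). Which part of the MTF1 transcript each probeset reads was not examined here. The ratio of 3′ to 5′ ACTB control probesets, a sign of RNA quality, was 2.105, 2.523 and 2.47 in FOXA1 transfected and 1.733, 1.915 and 1.54 in control arrays, without overlap, and that of GAPDH was 0.92 ± 0.02 against 0.90 ± 0.009. Their part in the differences at MTF1 and the metallothioneins was not tested.

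**Figure D4:**
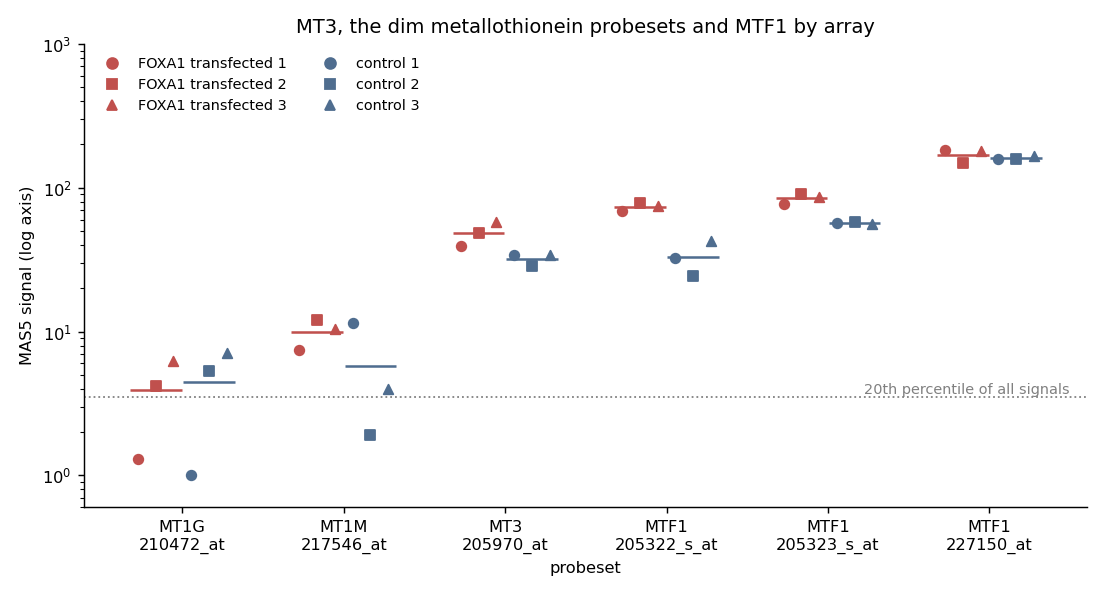
MAS5 signal (log axis) by array for MT3, the dim MT1G and MT1M probesets and the 3 MTF1 probesets (x axis), with points for arrays and a line for each group mean; the dotted line is the 20th percentile of all signals. FOXA1 transfected arrays lie above the control arrays for MT3 and for MTF1 at 205322_s_at and 205323_s_at, and the groups overlap at MTF1 227150_at, MT1M and MT1G 210472_at.

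**Figure D5:**
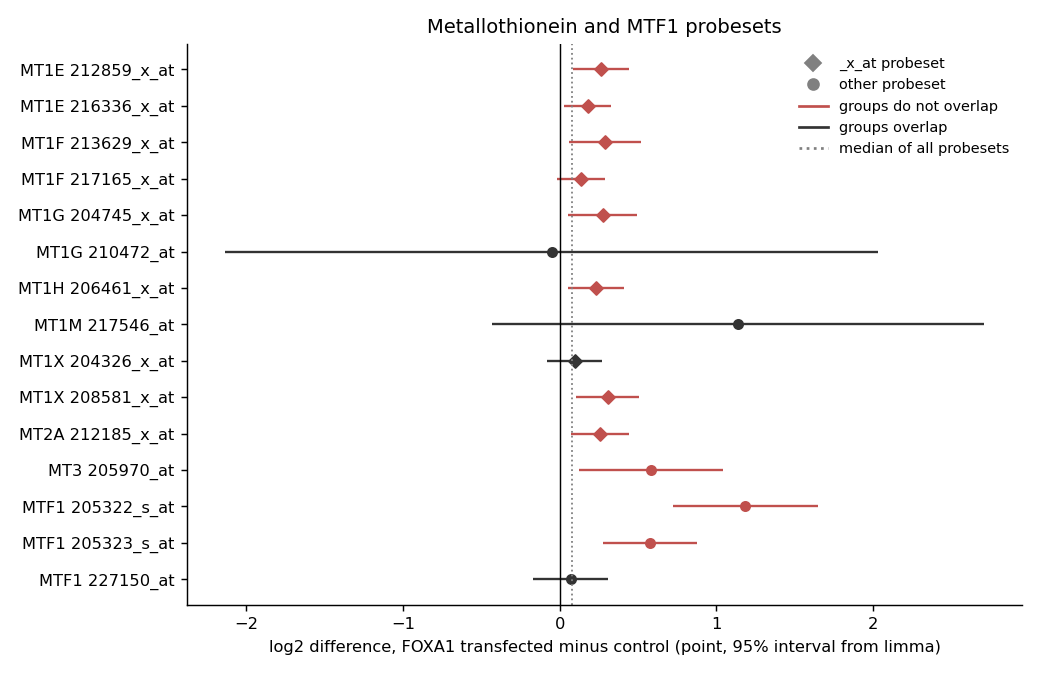
Log2 difference between FOXA1 transfected and control cells (x axis) for the 15 member probesets (y axis), with points for the estimate and bars for the 95% interval from limma, and a dotted line at the median of all probesets (0.08). The 11 probesets whose groups do not overlap (red) lie at or above 0.14, and MTF1 205322_s_at is the farthest at 1.18. Every FOXA1 transfected array was above every control array in 10.5% of all probesets, 15.1% of _x_at probesets and 58.2% of those over a signal of 5000.

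The other genes of zinc and copper handling were taken at the brightest probeset of each gene, and none passed the test in either direction. Of 10 zinc exporters of the SLC30 family, 7 had a log2 difference above 0 (median 0.13). SLC30A1, the plasma membrane exporter that MTF1 regulates, read 225.9, 322.8 and 311.1 in FOXA1 transfected and 250.3, 246.6 and 279.5 in control cells. The groups overlapped, and the log2 difference was 0.13 (SE 0.13, limma adjusted p = 0.76). SLC30A2, a vesicular exporter, had the smallest p of the list and read 15, 5.5 and 18.1 against 6.6, 1.4 and 4.6, with overlap (log2 difference 1.71, SE 0.75, limma adjusted p = 0.42). Of 14 zinc importers of the SLC39 family, 8 lay above 0 and 6 below (median 0.03). SLC39A5, an importer of the basolateral membrane, read 48.6, 35.8 and 40.7 against 14.1, 11.2 and 16.2, without overlap, with a log2 difference of 1.60 (SE 0.27, limma adjusted p = 0.079). SLC39A7, which releases zinc from the endoplasmic reticulum, read 218, 189.2 and 206.4 against 273.9, 240 and 275.1, without overlap in the other direction (log2 difference -0.36, SE 0.10, limma adjusted p = 0.21). SLC39A10 was also lower, at -0.31 with overlapping groups (limma adjusted p = 0.39).

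Among 11 genes of copper handling, 4 lay above 0 and 7 below (median -0.01). SCO2, a copper chaperone for cytochrome c oxidase, had the smallest p of that list (log2 difference 0.28, limma adjusted p = 0.37), and the copper chaperone ATOX1 had -0.17 without overlap (limma adjusted p = 0.50). Of 11 stress genes that metals are known to induce 9 were measured, 5 above 0 and 4 below (median 0.02). NQO1, a quinone reductase, read 812.8, 877.5 and 865.2 against 992.5, 1012.3 and 1104.6, without overlap (log2 difference -0.28, SE 0.08, limma adjusted p = 0.21). The heat shock cochaperone DNAJB1 was at 0.27 (limma adjusted p = 0.37), and haem oxygenase HMOX1 at -0.22 with overlapping groups (limma adjusted p = 0.68).

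Glucocorticoids are the other well-known inducers of metallothioneins, and 7 of 8 listed genes were measured, 3 above 0 and 4 below (median -0.0046). This list also holds NR3C1, the glucocorticoid receptor itself rather than a target, at -0.0124. KLF9, a transcription factor, read 28.5, 27.2 and 24.3 in FOXA1 transfected and 84.8, 90.2 and 51.8 in control cells, the lower level in every FOXA1 transfected array (log2 difference -1.46, SE 0.23, limma adjusted p = 0.060). TSC22D3 was also lower, at -0.20 with overlapping groups (limma adjusted p = 0.60). ZBTB16 went the other way without overlap, at low signals of 10.67 ± 1.76 against 6.73 ± 0.51 (log2 difference 0.65, limma adjusted p = 0.66). FKBP5, the glucocorticoid receptor cochaperone, was at -0.0046. None of the 7 passed the test.

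Of 10 neighbours of the cluster on 16q 9 were measured, and 8 lay above 0 (median 0.14), none past the test. MT4, the squamous metallothionein, read 13.9, 15.5 and 4.6 against 1.9, 7.6 and 2.4, with overlap (log2 difference 1.61, SE 0.76, limma adjusted p = 0.46). OGFOD1 read 416.9, 418.3 and 478.8 against 373.6, 344.3 and 413.2 at its brightest probeset, a log2 difference of 0.22 without overlap (limma adjusted p = 0.43). BBS2, of the Bardet-Biedl complex, was at -0.26 without overlap (limma adjusted p = 0.43). Of the markers of other cell types 16 of 18 were measured, 11 lay above 0, and their summed signal was 214.5 to 237.1 in FOXA1 transfected and 174.5 to 210.4 in control arrays, none of them at 0 in every array. The epithelial and urothelial markers summed to 2524 to 2723 against 2226 to 2545. Most of that sum was KRT18 alone, at 2358.5, 2530.1 and 2543.9 against 2296.2, 2080.4 and 2405.1, read by an _x_at probeset. The sum therefore says little about the other epithelial and urothelial markers, and its size cannot be set against that of the other cell types. No marker passed the test in either list, and their part in the metallothionein values was not tested.

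The log2 signals of the 12 metallothionein probesets were each scaled to mean 0 and SD 1 over the 6 arrays and averaged, and this pattern was compared with 22639 probesets of other genes by Pearson's correlation, as a description across arrays that fall into 2 groups. The most similar were EIF5 (208290_s_at, r = 0.997), OGFOD1 (221090_s_at, r = 0.996), GMEB2 (44146_at, r = 0.996), RPL37A (214041_x_at, r = 0.996, in the study's table with the opposite direction) and EIF4G1 (208625_s_at, r = 0.995). EIF5, a translation initiation factor, read 555.6, 588.3 and 572.1 in FOXA1 transfected and 453.1, 440.2 and 455.9 in control cells. OGFOD1 read 167.9, 181 and 171.2 against 123.7, 115.2 and 122.8 at this second probeset.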

How the data were processed

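Expression was measured on 6 Affymetrix HG-U133 Plus arrays, 3 per group, grouped by the sample labels. The table deposited by the authors holds MAS5 signals, an intensity on a linear scale. The methods also describe RMA log2 values, which the deposited table does not hold. Array control probesets (62) were left out. Signals were log2 transformed here, with 0.1 in place of the 25 zeros (chosen once the data had been seen), and groups were compared over 54613 probesets with limma 3.58.1 in R 4.3.3 (intensity trend, two-sided, Benjamini-Hochberg adjustment over all probesets, threshold 0.05). Single values outside that fit used the exact permutation test, whose smallest p is 0.1.

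Symbols came from the platform annotation, and all 15 member probesets matched a current gene by Entrez number. From each gene list the counts were given with up to 3 genes of smallest p, plus 5 genes of similar pattern. SLC30A1, HMOX1, FKBP5 and NR3C1 were named beyond this for their role or after their values were seen. So were the epithelial and urothelial markers EPCAM, CDH1, KRT7, KRT8, KRT19, UPK3A and PPARG. Members and lists were chosen with earlier results of these data known. Alternatives were SAM (20 permutations, written here), no intensity trend, quantile normalization, median centring, a floor at 3.5, no dim probesets (mean signal up to the median, 14.47), no _x_at probesets, a replicate block, and leaving out each array in turn. All columns of sample values were mapped. The number of arrays limits the precision.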

Additional observations from a re-analysis of the deposited data

How the results depend on the processing

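Besides the reported setting 14 others were run, and of 199 values of single probesets under them 190 kept their direction and their side of the threshold. Part of that count was fixed in advance. SAM, no intensity trend, the replicate block and leaving out probesets cannot change a log2 difference, nor can the floor at signals above 3.5. Median centring moves every log2 difference by the same amount, so it is not a separate check for each probeset. No member was called in the reported setting, so the count is no measure of robustness. The median log2 difference of the metallothionein probesets, 0.26, was 0.0649 with quantile normalization, 0.0786 after median centring of each array and 0.58 for the 3 probesets that remained without _x_at probesets, while the median of all probesets was -0.0046, -0.10 and 0.0772. Median centring turned MT1E 216336_x_at to -0.0025, MT1F 217165_x_at to -0.0455, MT1X 204326_x_at to -0.0859 and MTF1 227150_at to -0.11. MT1G 210472_at ranged from -0.92 to 0.61 when 1 array was left out, with 0.28 without control array 2 and 0.49 without control array 3. The count of member probesets called higher, 0 as reported, was 1 without dim probesets (MTF1 205322_s_at, adjusted p = 0.035), and 0 to 1 when 1 array was left out, the 1 being MT1X 208581_x_at without FOXA1 transfected array 3. The number of probesets called on the whole array, 32 as reported, was 4 by SAM, 1 without the intensity trend, 24 with quantile normalization, 7 after median centring, 37 with the floor, 174 without dim probesets, 22 without _x_at probesets and 4 to 76 with 1 array left out. With the replicate number as a block 0 members were called (lowest adjusted p = 0.062) and 85 probesets overall. Arrays with the same number correlated at 0.00218, 0.0381 and 0.011 in their deviations from the group means, so the numbers were not taken to pair the arrays. Signals near the 20th percentile limit what can be seen at MT1G 210472_at. At MT1M the limit is a low signal with a wide spread between the control arrays (11.5, 1.9 and 4.0).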
